A study of Homo sapiens with 6 samples.

Results

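The 41 lysosomal genes described here were chosen by name: hydrolases, their soluble helpers, membrane proteins, subunits of the proton pump and the MiT/TFE transcription factors. A gene was measured where the platform annotation gave a probe set that gene symbol alone, and the brightest such probe set over the 6 arrays stood for it. By this rule 40 of the 41 genes were measured, of 19777 genes in all. The exception was GLB1, because its symbol appears there only together with a second one, and it was not analysed here. The RNA came from KOPTK1, a long-established line of human T-cell leukaemia of the acute lymphoblastic type (T-ALL), hybridised to one-colour Affymetrix arrays. Cells of the vehicle group (n = 3) and of the PD0332991 group (n = 3, 1 µM) were both cultured for 48 h in RPMI-1640 with fetal calf serum and antibiotics. PD0332991, or palbociclib, inhibits CDK4 and CDK6, the kinases that with D-type cyclins phosphorylate RB and permit entry into S phase. The study compared this inhibitor with vehicle in a single cell line, in what the submitters describe as biological triplicate.

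The lysosome is the acidic compartment in which proteases, glycosidases and lipid-cleaving enzymes degrade material brought in by endocytosis and autophagy. A vacuolar H+-ATPase (V-ATPase), built from a membrane sector V0 and a cytosolic sector V1, pumps the protons that these enzymes need. Many lysosomal genes are controlled by TFEB, TFE3 and MITF, basic helix-loop-helix factors that bind the E-box CACGTG and its extended form, the CLEAR box. The activity of these factors is set largely by phosphorylation and by where in the cell they lie, which RNA levels do not measure.

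Most lysosomal genes that changed were higher after PD0332991. Of the 40 measured, 22 rose, 2 fell and 16 did not pass an adjusted p of 0.05 in limma, a linear model fitted over all genes. That is 55% higher and 5% lower, where 15.6% of all genes tested were higher and 13.6% lower, 29.2% in either direction. Fold changes are on the scale of log2(intensity + 16), on which the median was 0.32 for the 40 genes and 0.01 for all genes tested. The changes were mostly modest: CTSO was the only member past 2-fold, and the median among the proteases was 0.52. All 3 PD0332991 arrays lay above all 3 vehicle arrays for 26 members and below them for 6, where 23% and 20% of all genes did so. Bright probe sets pass the test more often: in a fit of the genes above the median intensity 27 of 38 members were higher and 4 lower, against 32.9% and 29.3% of all genes in that fit. The values are relative to the other RNAs on each array, so more lysosomal RNA per cell cannot be told apart from less of other RNAs.

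**Figure D1:**
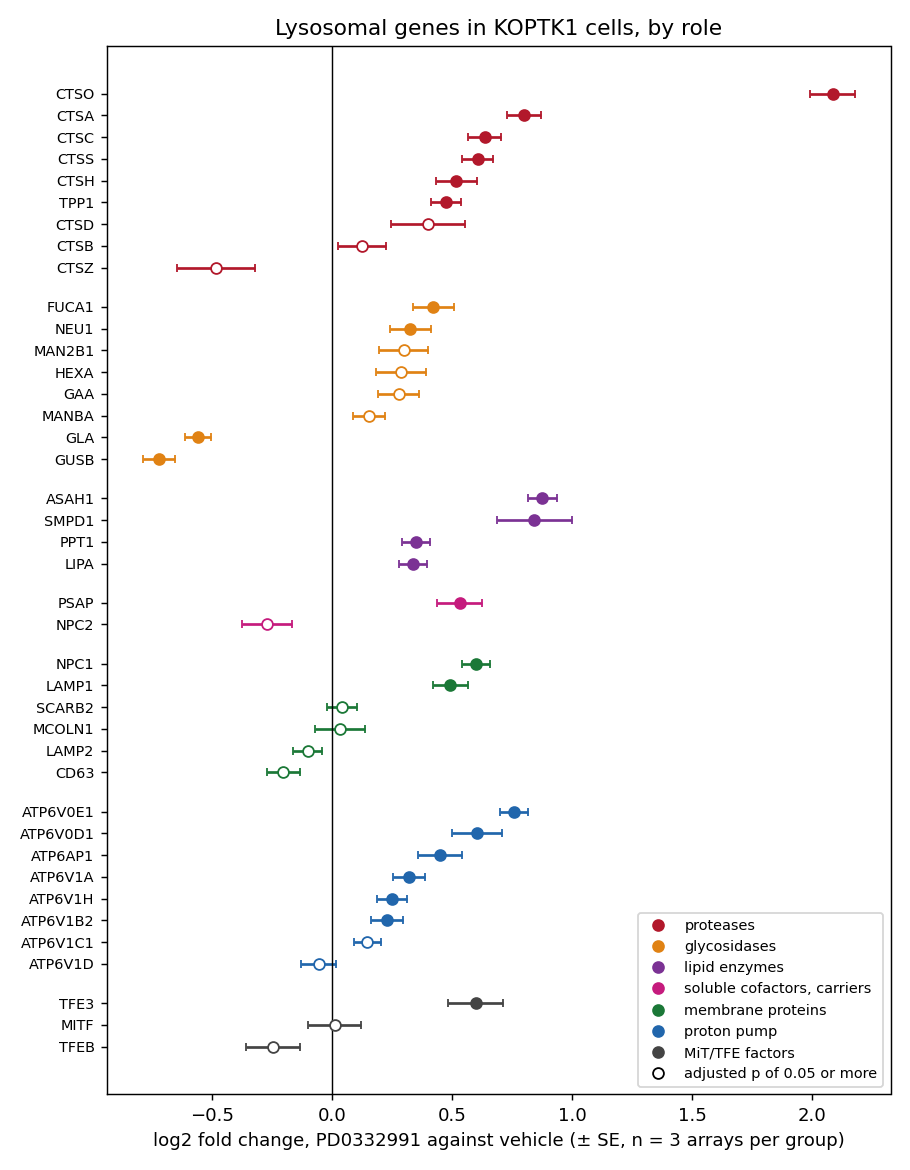
Log2 fold change (x axis, PD0332991 against vehicle, ± SE, n = 3 arrays per group) of each of the 40 measured lysosomal genes, grouped by role. Filled points passed an adjusted p of 0.05; CTSO stands farthest right at 2.08, and GUSB at −0.72 and GLA at −0.56 are the filled points left of 0.

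The promoter sequences of 7 members are shown because they hold, or lack, the letters that MiT/TFE factors bind, in genes that rose, fell or did not pass. They were picked by hand, and no gene is shown that rose and lacked the letters. RefSeq's table of GRCh38.p14 held promoters for 27 of the 40 genes, in windows from 250 bases before to 50 bases after a transcript start. The letters searched were CACGTG, its longer form TCACGTGA, and the CLEAR palindrome of 10 letters, which is TCACGTGA with G before it and C after it. Each reads the same on both strands, and each longer form contains the shorter ones. Each line runs 5′ to 3′ along the gene's strand from 250 bases before the start to 30 after it, with matches in capitals.
GAA (chr17:80101331-80101610, plus strand): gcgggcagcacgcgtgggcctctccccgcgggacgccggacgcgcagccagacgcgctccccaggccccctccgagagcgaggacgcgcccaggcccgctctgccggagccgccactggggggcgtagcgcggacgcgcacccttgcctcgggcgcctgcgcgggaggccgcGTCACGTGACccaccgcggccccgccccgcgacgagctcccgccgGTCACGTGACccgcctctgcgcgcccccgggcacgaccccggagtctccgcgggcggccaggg
MCOLN1 (chr19:7522374-7522653, plus strand): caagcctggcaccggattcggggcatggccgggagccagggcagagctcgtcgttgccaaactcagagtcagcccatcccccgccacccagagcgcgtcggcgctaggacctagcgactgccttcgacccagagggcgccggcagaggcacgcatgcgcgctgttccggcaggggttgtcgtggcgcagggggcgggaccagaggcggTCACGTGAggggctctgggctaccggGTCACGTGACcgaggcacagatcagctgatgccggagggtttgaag
LAMP1 (chr13:113296989-113297268, plus strand): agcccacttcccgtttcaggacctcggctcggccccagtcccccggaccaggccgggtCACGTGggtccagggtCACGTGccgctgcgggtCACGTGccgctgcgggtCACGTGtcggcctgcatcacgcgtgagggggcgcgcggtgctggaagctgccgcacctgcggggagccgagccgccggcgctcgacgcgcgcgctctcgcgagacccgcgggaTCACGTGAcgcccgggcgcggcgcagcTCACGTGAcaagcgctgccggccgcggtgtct
CTSA (chr20:45891085-45891364, plus strand): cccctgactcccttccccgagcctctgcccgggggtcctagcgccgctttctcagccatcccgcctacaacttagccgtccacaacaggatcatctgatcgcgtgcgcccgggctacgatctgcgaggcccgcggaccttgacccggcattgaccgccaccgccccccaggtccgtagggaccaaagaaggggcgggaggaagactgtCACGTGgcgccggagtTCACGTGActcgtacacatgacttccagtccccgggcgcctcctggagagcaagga
ATP6V0D1 (chr16:67481128-67481407, minus strand): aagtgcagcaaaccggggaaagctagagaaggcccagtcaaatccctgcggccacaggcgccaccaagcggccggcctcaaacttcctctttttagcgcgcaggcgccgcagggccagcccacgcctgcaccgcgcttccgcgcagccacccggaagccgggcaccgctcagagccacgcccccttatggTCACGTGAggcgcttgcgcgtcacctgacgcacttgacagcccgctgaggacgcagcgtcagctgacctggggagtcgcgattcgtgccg
GUSB (chr7:65982184-65982463, minus strand): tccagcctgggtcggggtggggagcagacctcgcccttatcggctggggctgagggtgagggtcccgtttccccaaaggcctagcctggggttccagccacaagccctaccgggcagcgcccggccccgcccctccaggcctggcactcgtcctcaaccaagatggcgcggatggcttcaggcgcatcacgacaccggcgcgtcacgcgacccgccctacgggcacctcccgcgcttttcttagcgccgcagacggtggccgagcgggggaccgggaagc
GLA (chrX:101407896-101408175, minus strand): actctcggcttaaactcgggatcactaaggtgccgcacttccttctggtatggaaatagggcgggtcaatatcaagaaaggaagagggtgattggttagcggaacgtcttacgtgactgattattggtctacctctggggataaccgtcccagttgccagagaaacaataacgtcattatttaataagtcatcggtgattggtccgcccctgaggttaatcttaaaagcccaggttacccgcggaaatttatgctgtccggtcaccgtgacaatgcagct

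The hexamer CACGTG was in the window of 8 of the 27 members, or 29.6%, and of 10.9% of the 15383 tested genes that the table holds. TCACGTGA was in 5 members (18.5%, against 1.66%) and the CLEAR palindrome in 2 (7.41%, against 0.65%). The letters were searched because they are known sites of factors that control many lysosomal genes, so a raised share among such genes is no new evidence. It was not particular to the members. Over the lists of other genes described further on, the shares ran from 19% to 46.7% for CACGTG, 7.69% to 26.7% for TCACGTGA and 0% to 13.3% for the palindrome. The LAMP1 window held CACGTG 6 times, more than any other member's, at 192, 176, 159, 142, 28 and 1 bases before the start. GAA held the 10-letter form at both of its matches, and MCOLN1 at the nearer of its matches. CACGTG was in 4 of 14 that rose, 0 of 2 that fell and 4 of 11 that did not pass. GAA and MCOLN1, with the 10-letter form, were among those that did not pass. A match describes these letters only, and binding was not measured.

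Among the proteases, 6 of 9 rose (66.7%, against 15.6% of all genes) and none fell, where 13.6% of all genes did. In the fit of brighter genes 7 of 8 were higher, against 32.9% of all genes there. CTSO, which encodes cathepsin O, a cysteine protease, had an intensity of 159, 167 and 201 in the vehicle arrays and 791, 823 and 769.5 in the PD0332991 arrays. Its groups lie far apart, and the log2 fold change was 2.08 (SE 0.09, limma adjusted p = 4.7e-05), or 4.24-fold. CTSA, the carboxypeptidase that also shields beta-galactosidase and neuraminidase in a complex, read 577, 587 and 597 in the vehicle arrays and 967, 1124 and 1012 in the PD0332991 arrays. The change was 0.80 (SE 0.07, limma adjusted p = 5.4e-04), and again no array of a group reached the other group. CTSC, or dipeptidyl peptidase I, which activates granule serine proteases such as granzymes, rose from 2726 ± 169.8 to 4238 ± 167 (SD, n = 3 each), a change of 0.63 (SE 0.07). CTSS, a cysteine protease known for trimming the invariant chain of MHC class II, rose by 0.60. CTSH, an aminopeptidase, rose by 0.52 and TPP1, tripeptidyl peptidase 1, by 0.47 on the log2 scale. TPP1 was at 0.20 (adjusted p = 0.424) on its probe set 214195_at, the one left where _x_at and _s_at designs are dropped, while its other 3 rose.

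The remaining proteases did not pass. CTSD, the main aspartic protease of lysosomes, read 135, 107 and 151 in the vehicle arrays and 146, 191 and 196 in the PD0332991 arrays. Its groups overlap, and its log2 change of 0.40 (SE 0.15) passed in 2 alternatives, among brighter genes (adjusted p = 0.030) and with array weights (adjusted p = 0.035). The abundant cysteine protease gene CTSB was at 0.12 (SE 0.10), and each of its 5 probe sets lay between −0.12 and 0.12 with none called. CTSZ, a carboxypeptidase, read 15.8, 17.1 and 30.5 in the vehicle arrays and 7.50, 11.4 and 11.7 in the PD0332991 arrays. These values lie near or below the pseudocount of 16, so the change of −0.49 (SE 0.16) depends on it, at −0.947 with a pseudocount of 1 and −0.195 with 64 (adjusted p = 0.077 and 0.081). Its groups do not overlap, and it passed with the replicate number as a block (adjusted p = 0.049), quantile normalization (adjusted p = 0.048) and median centring (adjusted p = 0.035).

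The glycosidases, which cleave sugars from glycoproteins, glycolipids and glycogen, were the role with members moving both ways. Of 8 measured, 2 rose (25%, against 15.6% of all genes), 2 fell (25%, against 13.6%) and 4 did not pass. GUSB, beta-glucuronidase, read 1650.5, 1699 and 1857 in the vehicle arrays and 1023, 1032 and 1076 in the PD0332991 arrays. All treated arrays lie below the vehicle arrays, with a log2 change of −0.72 (SE 0.07, limma adjusted p = 5.8e-04). GLA, alpha-galactosidase A, whose loss causes Fabry disease, read 454, 432 and 455 in the vehicle arrays and 295, 303 and 295 in the PD0332991 arrays. Within each group the arrays lie close together, and the change was −0.56 (SE 0.05, limma adjusted p = 6.7e-04). Their promoters, shown above, held none of the searched letters. CACGTG was in 4 of the 14 risen members searched and 4 of the 11 that did not pass, and a link between letters and calls was not tested. A dimmer probe set of GUSB, 230125_at, was at 0.10 and not called, and GLA had 1 probe set.

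FUCA1, alpha-L-fucosidase, rose from 329 ± 27.9 to 446 ± 30.7 (SD, n = 3 each), a change of 0.42 (SE 0.09). NEU1, the lysosomal sialidase, read 218, 191 and 214 in the vehicle arrays and 243, 263 and 287 in the PD0332991 arrays. All treated arrays of NEU1 lie above the vehicle arrays, and the change was 0.33 (SE 0.08, limma adjusted p = 0.033). Its call did not hold without any 1 of the vehicle arrays or without PD0332991 replicate 2 or 3, where adjusted p ran from 0.057 to 0.100, or with the replicate number as a block (adjusted p = 0.065). The 4 that did not pass were all above 0: MAN2B1, an alpha-mannosidase, at 0.30 (SE 0.10), HEXA, the alpha subunit of beta-hexosaminidase, at 0.29 (SE 0.10), GAA, the acid alpha-glucosidase, at 0.28 (SE 0.09), and MANBA, the beta-mannosidase, at 0.15 (SE 0.07). Of the 16 alternatives GAA passed in 4, among them without vehicle replicate 1 (adjusted p = 0.024), MAN2B1 also in 4, and HEXA in 6, among them without vehicle replicate 3 (adjusted p = 0.015) and with the mean of its probe sets (0.31, adjusted p = 0.019). Among the 4 probe sets of HEXA, 215155_at rose by 0.58 and 243511_at by 0.29 (limma adjusted p = 0.013 and 0.049 over all probe sets). Counts for this role shift with the arrays used: 1 glycosidase was higher without PD0332991 replicate 2 or 3 or vehicle replicate 2, and 5 were higher in the fit of brighter genes.

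All 4 lipid enzymes rose, where 15.6% of all genes and 32.9% in the fit of brighter genes did. Their median was 0.60, or 0.40 with the mean of probe sets and 0.34 with _x_at and _s_at probe sets (less specific designs) dropped. ASAH1, acid ceramidase, which splits ceramide into sphingosine and a fatty acid, read 1384, 1453 and 1519 in the vehicle arrays and 2759, 2662 and 2598 in the PD0332991 arrays. The groups are clearly apart, with a log2 change of 0.87 (SE 0.06, limma adjusted p = 2.2e-04), or 1.83-fold. Among its 5 probe sets 3 rose, by 0.87 to 0.97, while 213902_at was lower at −0.44 (limma adjusted p = 0.0064 over all probe sets) and 210979_at was not called. SMPD1, acid sphingomyelinase, which produces ceramide, read 63.8, 64.2 and 97.6 in the vehicle arrays and 152, 130.2 and 154 in the PD0332991 arrays. It rose by 0.84 on the log2 scale with the widest error of the role (SE 0.16), and vehicle replicate 3 was the highest of its vehicle arrays. The other 3 probe sets of SMPD1 were not called, and averaging its probe sets gave 0.39 (adjusted p = 0.072). LIPA, which hydrolyses cholesteryl esters and triglycerides, rose from 1564 ± 16.8 to 1979 ± 96.2 (SD, n = 3 each). PPT1, a thioesterase that removes palmitate from proteins, rose by 0.35, as against 0.34 for LIPA.

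Of the soluble helpers, PSAP rose and NPC2 did not pass. PSAP, the precursor of the saposins that present sphingolipids to their enzymes, read 3147, 3295 and 3794 in the vehicle arrays and 4554, 5238 and 4990.4 in the PD0332991 arrays. Its log2 fold change was 0.53 (SE 0.09, limma adjusted p = 0.008), and its second probe set rose by 0.48. NPC2, the lumenal carrier that hands cholesterol to NPC1, read 1714, 1635 and 1718 in the vehicle arrays and 1231, 1609 and 1376 in the PD0332991 arrays. All treated arrays were below the vehicle arrays, but PD0332991 replicate 2 came close, and the change of −0.27 (SE 0.10) passed only without that array (adjusted p = 0.026), among brighter genes (adjusted p = 0.030) and with a variance trend (adjusted p = 0.040).

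**Figure D2:**
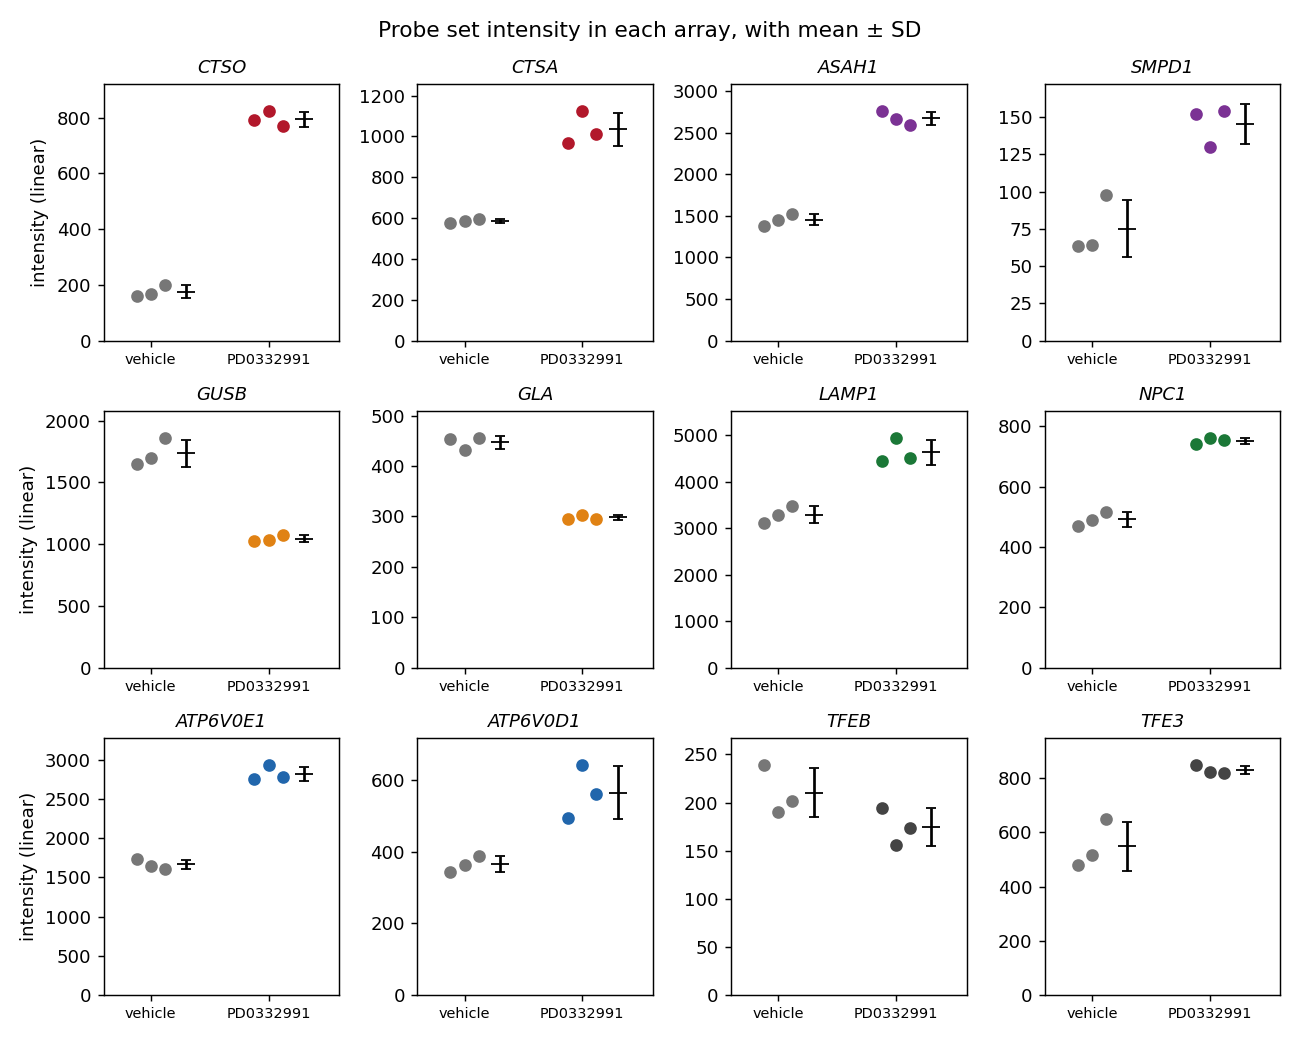
Probe set intensity on a linear scale (y axis, starting at 0) in each of 3 vehicle (grey) and 3 PD0332991 (coloured) arrays for 12 members, with the mean ± SD beside the points. The groups are apart in each panel except TFEB, where PD0332991 replicate 1 at 195 lies among the vehicle arrays.

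Of the 6 membrane proteins 2 rose (33.3%, against 15.6% of all genes and 32.9% of brighter ones) and none fell. Their median of 0.04 was 0.11 without PD0332991 replicate 1, −0.0036 without PD0332991 replicate 3 and 0.22 with the mean of probe sets. NPC1, the membrane protein that exports cholesterol from lysosomes, read 469, 488 and 517 in the vehicle arrays and 741, 760.0 and 756 in the PD0332991 arrays. Its groups do not overlap, and the log2 fold change was 0.60 (SE 0.06, limma adjusted p = 7.6e-04). NPC1 thus rose while its lumenal partner NPC2 lay below 0 without passing. LAMP1, an abundant glycoprotein that lines the lysosomal membrane, read 3113, 3278 and 3481 in the vehicle arrays and 4456, 4936 and 4509 in the PD0332991 arrays. That was a change of 0.49 (SE 0.07, limma adjusted p = 0.0036). SCARB2, which carries beta-glucocerebrosidase to lysosomes, was at 0.04 (SE 0.06). MCOLN1, the calcium channel TRPML1, was at 0.03 (SE 0.10), from 1 probe set. CD63, a tetraspanin of late endosomes and exosomes, was at −0.20 (SE 0.07), with all 3 treated arrays below the vehicle arrays.

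LAMP2, the other main membrane glycoprotein and a receptor of chaperone-mediated autophagy, gave different answers by probe set. The brightest, 200821_at, read 1610.0, 1538 and 1686 in the vehicle arrays and 1463, 1525 and 1505 in the PD0332991 arrays. Its change of −0.10 (SE 0.06) did not pass, and that is the value counted above. The other 3 probe sets rose: 226671_at by 1.08, 203042_at by 0.94 and 203041_s_at by 0.86 (limma adjusted p = 0.001, 8.3e-04 and 0.0023 over all probe sets). With the mean of its probe sets the sign turned, to 0.69 (adjusted p = 0.0012). LAMP2 has splice forms with different last exons, and which form each probe set reads was not determined here.

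Of the 8 pump genes among the members 6 rose (75%, against 15.6% of all genes) and none fell, where 13.6% of all genes did. In the fit of brighter genes 7 of the 8 were higher, against 32.9% of all genes there. Of 15 other subunits, described further on, 4 rose (26.7%) and 1 fell (6.67%). ATP6V0E1, a small subunit of the membrane sector, read 1731, 1652 and 1612 in the vehicle arrays and 2760.3, 2929 and 2776 in the PD0332991 arrays. Its change was 0.76 (SE 0.06, limma adjusted p = 3.1e-04), or 1.69-fold, and 5 of its 7 probe sets were higher. ATP6V0D1, a V0 subunit that couples the rotor to the central stalk, read 345, 363 and 388 in the vehicle arrays and 494, 641 and 561 in the PD0332991 arrays. It rose by 0.60, and PD0332991 replicate 1 was the lowest treated array although still above every vehicle array. ATP6AP1, an accessory protein of the pump, rose from 543 ± 26.2 to 749 ± 78.9 (SD, n = 3 each), a change of 0.45 (SE 0.09). Its adjusted p was 0.052 to 0.055 where any of vehicle replicates 1 and 2 and PD0332991 replicate 3 was left out.

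Of the 5 members from the cytosolic sector 3 rose, where 15.6% of all genes did. ATP6V1A, the catalytic subunit that binds ATP, rose from 1298 ± 41.6 to 1626 ± 96.1 (SD, n = 3 each), a change of 0.32 (SE 0.07). ATP6V1H, a regulatory subunit, rose by 0.25 (limma adjusted p = 0.027) and ATP6V1B2, the other ATP-binding subunit, by 0.23 (limma adjusted p = 0.048). Both calls were near the threshold. ATP6V1B2 passed in 1 of the 6 fits with an array left out and ATP6V1H in 2, and neither passed with the replicate number as a block (adjusted p = 0.104 and 0.073), with median centring or with _x_at and _s_at probe sets dropped. Only 3 pump subunits were higher where vehicle replicate 1, vehicle replicate 2 or PD0332991 replicate 3 was left out. ATP6V1C1, which ties V1 to V0, was at 0.15 (SE 0.06), and 226463_at, another of its probe sets, rose by 0.34. ATP6V1D, of the central stalk, was at −0.06 (SE 0.07) with none of its 4 probe sets called.

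Of the 3 MiT/TFE factors among the members 1 rose (33.3%, against 15.6% of all genes). TFE3, a ubiquitous member of the family, read 479, 516 and 649 in the vehicle arrays and 847, 822 and 821 in the PD0332991 arrays. It rose, with a log2 change of 0.60 (SE 0.12, limma adjusted p = 0.011), although its other 3 probe sets were at 0.05 to 0.27 without a call, and averaging its probe sets gave 0.27 (adjusted p = 0.076). TFEB, the factor best known for driving lysosomal genes, read 239, 190.2 and 202 in the vehicle arrays and 195, 156 and 173 in the PD0332991 arrays. Its groups overlap and its change of −0.25 (SE 0.11) did not pass. The second probe set, 50221_at, fell, at −0.97 (limma adjusted p = 0.0016 over all probe sets), and the mean of both gave −0.61 (adjusted p = 0.0038). No TFEB probe set was higher. MITF, the melanocyte and osteoclast member, read 39.2, 48.1 and 38.3 in the vehicle arrays and 47.4, 44.7 and 34.9 in the PD0332991 arrays, below the median gene intensity of 89.3. Its groups overlap fully, at 0.01 (SE 0.11), and none of its 3 probe sets was called. TFEC, the remaining gene of the family and no member, was counted in a list of other genes. Its mean intensity was 2139 with vehicle and 2973 with PD0332991, and it rose by 0.47 on the log2 scale, but averaging its probe sets gave 0.19 (adjusted p = 0.086).

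Over all 100 probe sets of the members, 42 were higher and 4 lower, where 10.7% and 10.2% of all probe sets were. Of the 24 genes with several, 9 had at least 2 that were higher, and 5 had none called. CTSC was higher on each of its 4 and CTSS on each of its 3. ASAH1 was the only member with probe sets called in both directions.

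**Figure D3:**
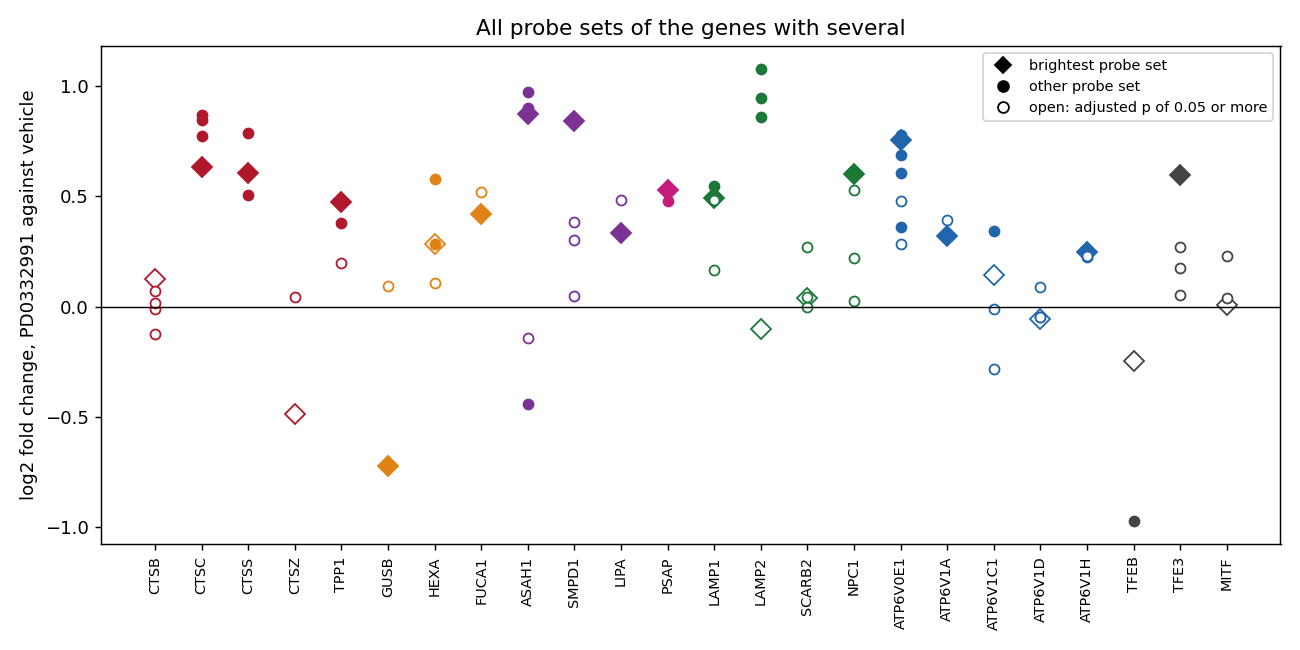
Log2 fold change (y axis, PD0332991 against vehicle) of every probe set of the 24 members with several, diamonds for the brightest and circles for the others. Filled symbols passed an adjusted p of 0.05 over all probe sets; in LAMP2 the diamond at −0.10 lies under 3 filled circles between 0.86 and 1.08, and in TFEB the filled circle is at −0.97.

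Of 26 other hydrolases measured, 11 rose (42.3%, against 15.6% of all genes) and 2 fell (7.69%, against 13.6%). Their median was 0.21, from 0.12 without vehicle replicate 1 to 0.34 without vehicle replicate 3, and 0.51 among brighter genes. The 2 largest increases were in IDUA, alpha-L-iduronidase, with 1.05 (SE 0.07), and in ARSG, a sulfatase, with 1.03 (SE 0.08). NAAA, an acid amidase of the same fold as acid ceramidase, fell from 364 ± 26.7 to 187 ± 10.2 (SD, n = 3 each), a change of −0.91 (SE 0.08). CTSV, a cysteine protease, fell by 0.52, and passed in 1 of 6 fits with an array left out.

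Among 24 other membrane proteins and cofactors, 11 rose (45.8%) and 1 fell (4.17%), with a median of 0.23 that was 0.13 with averaged probe sets. CTNS, the cystine exporter, rose by 0.69 and OSTM1, the partner of the chloride transporter CLC-7, by 0.56 on the log2 scale. The 1 that fell, CTBS at −0.19 (SE 0.05), is itself a glycosidase, chitobiase, and did not pass in any fit with an array left out. The higher members numbered 7 without PD0332991 replicate 2 and 6 without vehicle replicate 1 or 2. Of the other 15 pump subunits 4 rose (26.7%, against 15.6% of all genes) and 1 fell (6.67%, against 13.6%), and the median of all 15 was −0.04. Leaving out vehicle replicate 2 turned that median to 0.100, and leaving out PD0332991 replicate 1, 2 or 3 gave 0.010, 0.025 or −0.12. It was also above 0 among brighter genes (0.20), with averaged probe sets (0.030) and with array weights (0.031). TCIRG1, an a-subunit of V0, rose by 0.52 and ATP6V1G1, of the peripheral stalk, by 0.42. ATP6V0A2, another a-subunit, fell by 0.41, but averaging its probe sets gave 0.03 (adjusted p = 0.813). With 1 array left out, 2 of these subunits were higher where the array was vehicle replicate 1 or 2 or PD0332991 replicate 2 or 3. There were 2 lower ones where it was replicate 1 of either group. Pump genes that rose were 6 of 8 among the members and 4 of 15 in the rest of the complex, a difference that was not tested. The 2 groups differ in brightness: all 8 members but 10 of the 15 others were above the median intensity. Mean intensity with vehicle and PD0332991 was 11.8 and 10.9 for ATP6V1G3 and 21.3 and 9.29 for ATP6V1C2, near or below the pseudocount of 16. Neither passed, with ATP6V1G3 at −0.04 (SE 0.30) and ATP6V1C2 at −0.56 (SE 0.18, limma adjusted p = 0.062), close to the threshold.

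Many enzymes reach lysosomes by a mannose 6-phosphate tag and sorting adaptors. A list of that route also held the sulfatase activator SUMF1 and subunits of the HOPS complex that tethers vesicles to lysosomes. Of its 20 genes 12 rose (60%, against 15.6% of all genes) and 2 fell (10%, against 13.6%). The median was 0.26, or 0.12 with _x_at and _s_at designs dropped. SUMF1 and the HOPS genes VPS11, VPS16, VPS39 and VPS41 were among the 12. The HOPS genes VPS18, at 0.28 (adjusted p = 0.116), and VPS33A, at −0.19 (adjusted p = 0.053), did not pass. SUMF1 rose by 0.81 and NAGPA, the enzyme that uncovers the tag, by 0.64. GGA2, an adaptor that sorts the tag's receptors, fell from 449 ± 17.9 to 229.8 ± 2.84 (SD, n = 3 each), a change of −0.92 (SE 0.06), and AP3S1, of the AP-3 adaptor, by 0.21. Without vehicle replicate 1 the higher genes numbered 7, and AP3S1 passed in 1 of 6 fits with an array left out. The mTORC1 and Rag machinery holds MiT/TFE factors in the cytoplasm when nutrients are ample. Of 22 genes in a list of it and of related regulators, 5 rose (22.7%) and 4 fell (18.2%), near the 15.6% and 13.6% of all genes. Of these 22, 21 were in the fit of brighter genes, and 9 of the 21 were higher there. In that fit 32.9% of all genes were higher and 29.3% lower. The median of the list was 0.14, or 0.057 with averaged probe sets. RRAGB, a Rag GTPase, rose by 0.83, TSC1, a brake on mTORC1, by 0.57, and MTOR, the kinase itself, by 0.45. The other 2 of the 5 that rose in the main fit are transcription factors and not part of that machinery. They are TFEC and ZKSCAN3, a zinc finger protein, at 0.36. Averaging probe sets ended the calls of MTOR (0.16, adjusted p = 0.400) and ZKSCAN3 (0.013, adjusted p = 0.940), and ZKSCAN3 passed in 2 of 6 fits with an array left out. FNIP2, a partner of folliculin, fell by 0.69 and YWHAE, a 14-3-3 protein that binds phosphorylated TFEB family members, by 0.52 on the log2 scale. RRAGD, also a Rag GTPase, fell by 0.47 and RHEB by 0.35.

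**Figure D4:**
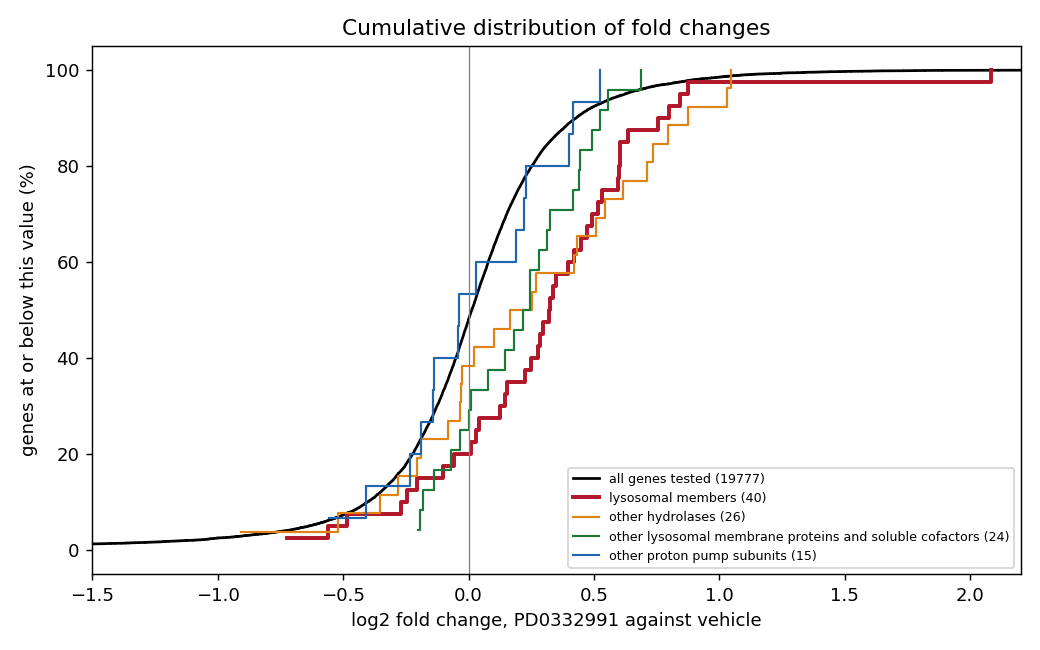
Cumulative share of genes (y axis, %) at or below a log2 fold change (x axis, PD0332991 against vehicle, cropped at both ends) for the 40 lysosomal members, 3 lists of other lysosomal genes and all 19777 genes tested. The curve of the members lies right of that of all genes over most of its range, with medians of 0.32 and 0.01, and the curve of the other pump subunits does not, with a median of −0.04.

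The arrays were alike in the measures that could be read from them. Array medians ran from 49.1 to 54.3, and precision is limited by their number. The proliferation marker MKI67 fell 11.8-fold and the CDK4/6 partner CCND2 rose 4.96-fold, as measures of the response in these cells. Of 14 T-lineage markers, 13 had a mean intensity above 100 in both groups and CD4 was below 16. All 14 were above 0 in log2 fold change, with a median of 0.33, and 7 rose (50%, against 15.6% of all genes). Their summed intensity went from a range of 32378 to 34858 to one of 39910 to 41214. Of 11 monocyte and macrophage markers 4 lay below 16 in both groups, CD14, LYZ, FCGR1A and S100A9. Of the 11, 1 rose (9.09%, against 15.6% of all genes) and 3 fell (27.3%, against 13.6%). Their summed intensity was 733 to 783 with vehicle and 557 to 592 with PD0332991, and VCAN made up most of it, with a mean of 411 and 271. Of 6 B cell markers 2 rose (33.3%, against 15.6% of all genes), and the sum of the 6 went from a range of 608 to 729 to one of 906 to 1078. The 2 were CD79A, with a mean of 275 and 543, and BLK, with 241 and 320. The part of these markers in the lysosomal result was not tested. As a sign of RNA quality, the log2 ratio of 3′ to 5′ control probe sets for ACTB was 1.21 to 1.30 with vehicle and 1.27 to 1.38 with PD0332991, and for GAPDH −0.10 to −0.04 and −0.06 to −0.04, ranges that overlap.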

How the data were processed

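RNA of 6 KOPTK1 cultures was biotin-labelled by the Affymetrix protocol, per the labels' protocols. The authors deposited 1 intensity per probe set and array, 54675 in all, already summarised and on a linear scale from 0.56 to 16362. Summarisation, background correction and scaling are not given in the sources used here, nor are batches. Trimmed array means ran from 282 to 294, so nothing was rescaled, and values became log2(intensity + 16), which understates changes of dim genes. There are no detection calls, and 25.5% of values were below 16.

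The 62 control probe sets were left out. GEO's annotation gave 1 symbol for 41091 probe sets, several for 1801 and none for 11721. Symbols were updated by gene ID through RefSeq's GRCh38.p14 table, without a match for 54. The probe set with the highest mean log2 value stood for a gene. limma 3.58.1 in R 4.3.3 (lmFit, eBayes, two-sided, 4 residual degrees of freedom) was fitted to all 19777 genes, with Benjamini-Hochberg adjustment over all of them and a threshold of 0.05. Every adjusted p is limma's. Probe sets had a fit of their own.

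The members and lists were chosen with earlier results of these data known. Every measured member is named, with up to 2 increases and 2 decreases from each list of other genes (called, groups not overlapping), and MKI67 and CCND2. Probe sets singled out (LAMP2, TFEB and others) and the markers named were chosen after their values were seen. So were the genes TFEC, MTOR, ZKSCAN3, RRAGD and RHEB and the HOPS subunits. Same-numbered arrays deviated together only weakly, with correlations of 0.007, 0.075 and 0.084, and the numbers were not taken as pairs. Arrays of unlike number gave −0.078 to 0.021. Other settings tried were a block for the replicate number, leaving out 1 array at a time, centring on the array median or quantile normalization, a fit of brighter genes, averaging a gene's probe sets, dropping those with the suffix _x_at or _s_at (less specific designs), a variance trend, array weights, and pseudocounts of 1 and 64. On simulated data with 19777 genes, of which 19577 were unchanged, limma called 8 of the unchanged ones. It recovered 0 of 50 genes with a log2 change of 0.25, 23 of 50 with 0.5, 44 of 50 with 1 and 50 of 50 with 2. Far more genes, 29.2%, were called in the arrays themselves, so these recoveries do not carry over to them. Figures were drawn with matplotlib 3.10.9.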

Additional observations from a re-analysis of the deposited data

How the results depend on the processing

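Across the 16 alternatives the members that were higher numbered 17 to 27 and those that were lower 2 to 4, with a median log2 fold change of 0.29 to 0.35. The 17 were of 34 members left with _x_at and _s_at probe sets dropped, and the 27 of 38 among brighter genes. With 1 array left out the higher members numbered 18 to 22, the lower 2 or 3, and the median was 0.30 to 0.35. Members with a lower call numbered 4 among brighter genes and 4 with a variance trend. One protease, CTSZ, was lower with the replicate block, quantile normalization and median centring (1 each), and 1 membrane protein, CD63, among brighter genes, with a variance trend and with a pseudocount of 64. Higher glycosidases numbered 1 with the replicate block, 5 among brighter genes and with a variance trend, and 4 with a pseudocount of 64 and with array weights. With an array left out the higher pump subunits numbered 3 to 6 and the higher glycosidases 1 to 2. Reversed signs came with the mean of probe sets, for LAMP2 (0.695, adjusted p = 0.0012) and ATP6V0A2 (0.0296, not called), whose probe sets differ.

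The lists of other genes were shorter in some settings. Dropping _x_at and _s_at probe sets left 21 membrane proteins and cofactors and 11 pump subunits. It left 14 tagging, sorting and HOPS genes and 16 mTORC1, Rag and related genes. Brighter genes included 15 hydrolases, 21 membrane proteins and cofactors, 10 pump subunits and 21 mTORC1, Rag and related genes. Lower hydrolases numbered 1 with the replicate block and among brighter genes. Lower membrane proteins and cofactors numbered 0 with the replicate block, quantile normalization, median centring and with _x_at and _s_at probe sets dropped, and 2 among brighter genes and with a pseudocount of 64, while the higher ones numbered 7 with the mean of probe sets and 7 with _x_at and _s_at dropped. Lower pump subunits numbered 2 with median centring, brighter genes, a variance trend, array weights and a pseudocount of 64, and 0 with the mean of probe sets, and 1 was higher with _x_at and _s_at dropped. Lower tagging, sorting and HOPS genes numbered 1 with the replicate block, quantile normalization and median centring, and 5 were higher with _x_at and _s_at dropped. Higher mTORC1, Rag and related genes numbered 9 with quantile normalization, brighter genes, a variance trend, array weights and a pseudocount of 64, and 3 with the mean of probe sets, and 2 were lower with _x_at and _s_at dropped. The causes were not tested. With an array left out, lists ran from 11 to 11 higher and 1 to 3 lower (hydrolases), 6 to 9 and 0 to 0 (membrane proteins and cofactors), 2 to 4 and 1 to 2 (pump), 7 to 10 and 1 to 2 (tagging, sorting and HOPS), and 4 to 7 and 4 to 4 (mTORC1, Rag and related genes).

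The replicate block, not used in the main fit, gave 19 higher and 3 lower members, and 2510 higher and 2269 lower genes of all against 3082 and 2693. In the simulation, changes of 0.25 on the log2 scale were not recovered, but 19577 of its 19777 genes were unchanged. In these arrays 29.2% of genes were called, and ATP6V1H at 0.25 and ATP6V1B2 at 0.23 passed. The simulated recovery therefore gives no limit for the fit of these arrays.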
